A study of Mus musculus with 16 samples.

Results

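Peptide signalling genes were followed in mouse cortex with and without a forebrain deletion of Foxp1, a gene of a forkhead transcription factor. The set held 9 genes of the 20841 in the deposited table, found by symbol, and all 9 were present. It comprised 8 receptor genes, Mc4r, Oxtr, Npr3, Prokr2, Glp2r, Npy1r, Npy2r and Adcyap1r1, and the ligand gene Adcyap1. They were chosen by their CPM levels in the 4 groups and the genotype differences of these libraries, so their values below are a description and are no independent evidence of a direction. The question of the study, from its title, is how cortical gene expression differs after Foxp1 deletion at birth and at 1 week.

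Neuropeptides are cut from precursor proteins, packed into dense-core vesicles and released to act on receptors that mostly couple to G proteins. The melanocortin receptor encoded by Mc4r raises cyclic AMP when it binds melanocyte-stimulating hormones and is blocked by agouti-related peptide. The oxytocin receptor (Oxtr) signals through calcium, the receptors of neuropeptide Y (Npy1r and Npy2r) lower cyclic AMP, and the receptor of PACAP (Adcyap1r1, ligand gene Adcyap1) raises it. Prokr2 encodes a receptor of prokineticins, Glp2r the receptor of glucagon-like peptide 2, and Npr3 the clearance receptor that removes natriuretic peptides.

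PolyA RNA of the right-hemisphere cortex was sequenced in 16 libraries, 4 from control and 4 from cKO (conditional knockout) mice at each of the ages P0 and P7. The labels give ages of postnatal day 0 and 7 and no strain, sex or alleles. The deletion is labelled forebrain-specific, and the published study used Emx1-Cre, which is active in dorsal progenitors and their excitatory neurons and glia but not in interneurons, vessels or microglia. P0 and P7 libraries were prepared and sequenced at different centres on different instruments, so age and platform cannot be told apart. The libraries held 17957490 to 18232943 reads at P0 and 9858296 to 15335738 at P7, and a count of 0 allows 0.165 to 0.167 CPM (reads scaled to the library total) at P0 and 0.196 to 0.304 at P7. Foxp1 itself had 273 to 364 CPM in P0 control and 131 to 182 in P0 cKO libraries, and 375 to 539 in P7 control and 162 to 246 in P7 cKO libraries, with no overlap at either age. Summed markers of excitatory cortical neurons reached 3195 to 3961 CPM at P0 and 1039 to 1338 at P7, while those of the hypothalamus, a main site of several of these peptides, reached 18.4 to 32.2 and 22.6 to 35.1. Of the 9 hypothalamic markers 6 were under 1 CPM at P0 and 7 at P7, where Pmch and Avp were at 0, and Agrp held most of the sum. In P0 control libraries 2 and 6 the summed thalamic markers were 194 and 195 CPM, against 110 to 132 in the other 6 P0 libraries. Slc17a6 held most of the sum, at 89.9 to 163 CPM in the P0 controls. Prox1 was at 23.1 to 37.3 and Tcf7l2 at 4.28 to 7.64 CPM there, and Lhx9 and Gbx2 averaged under 1 CPM over the P0 libraries. The P0 differences of the 9 genes are given with and without libraries 2 and 6. The part of the higher thalamic sums in these differences was not tested.

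Calls rest on limma fits over all genes on log2(CPM + 1), with a Benjamini-Hochberg threshold of 0.05, and the words rose and fell are kept for called genes. Of the 9 genes, 7 were called between genotypes at P7. Mc4r, Oxtr, Adcyap1, Npr3, Npy1r and Prokr2 were higher in cKO cortex and Glp2r was lower. At P7 limma called 1.67% of 12828 genes higher and 2.05% lower, 3.72% in all, and nothing is read from the members' count, because these differences were known when the genes were chosen. At P0 the 9 genes gave 0 calls, against 0.254% of 12580 genes, with limma adjusted p from 0.110 to 0.886. At an unadjusted p under 0.05 limma had 6 of them and 2276 of the 12580 genes. At the adjusted threshold edgeR called 0 of the 9 and 30 of all genes, and DESeq2 4 of the 9 and 429 of all genes. Of the 9 log2 fold changes 8 were positive at each age, and for the same reason nothing is read from that count. The median log2 fold change over all genes tested was 0.013 at P0 and 0.032 at P7. In bulk cortex, fewer cells of a type and less RNA per cell cannot be told apart.

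**Figure D1:**
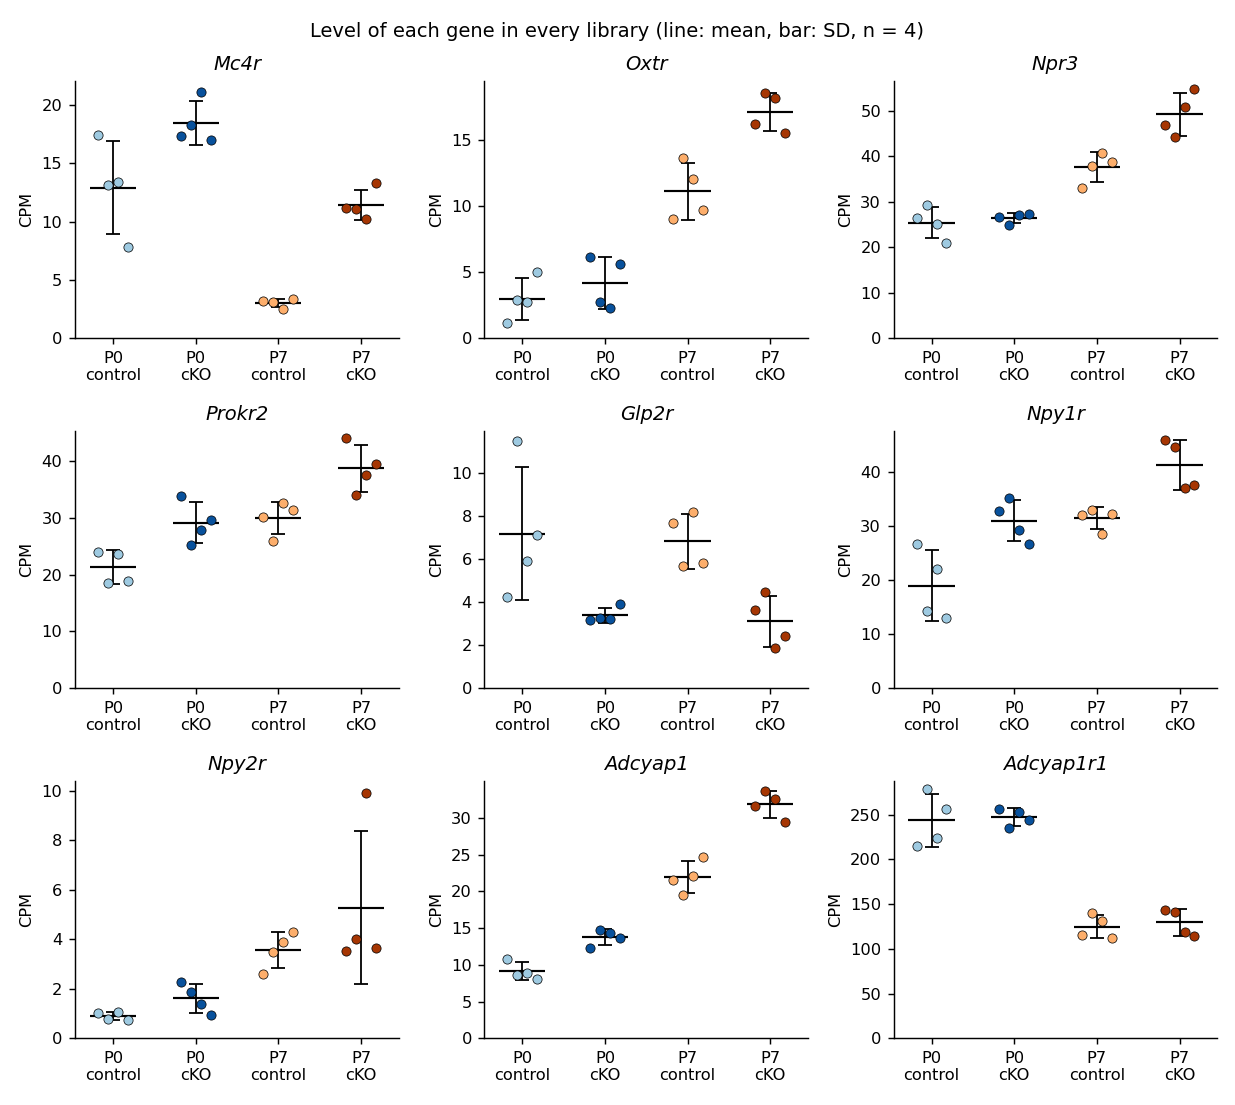
CPM (vertical axis, from 0) of each of the 9 genes in 4 control and 4 cKO libraries at P0 and the same numbers at P7. Points are libraries, lines are means and bars are SD. At P7 the cKO points of Mc4r lie between 10.2 and 13.3 CPM, above control points of 2.51 to 3.32, and the groups of Npy2r and Adcyap1r1 overlap.

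Because Foxp1 is a forkhead factor, the promoters of the members were searched for forkhead letters on both strands, from 250 bases before to 50 after the start (RefSeq, GRCm38.p6). The promoters of Oxtr and Adcyap1, which rose at P7, and of Glp2r, which fell, are shown 5′ to 3′, with the core TGTTT in capitals where it was found.
Oxtr, chr6:112489776-112490075, minus strand: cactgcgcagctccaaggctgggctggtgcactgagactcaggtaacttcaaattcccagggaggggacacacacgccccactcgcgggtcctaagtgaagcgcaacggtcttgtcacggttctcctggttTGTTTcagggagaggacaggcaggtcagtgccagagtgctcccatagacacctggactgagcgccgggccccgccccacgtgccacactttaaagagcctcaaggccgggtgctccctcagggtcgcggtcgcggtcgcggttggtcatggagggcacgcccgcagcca
Adcyap1, first start, chr17:93198767-93199066, plus strand: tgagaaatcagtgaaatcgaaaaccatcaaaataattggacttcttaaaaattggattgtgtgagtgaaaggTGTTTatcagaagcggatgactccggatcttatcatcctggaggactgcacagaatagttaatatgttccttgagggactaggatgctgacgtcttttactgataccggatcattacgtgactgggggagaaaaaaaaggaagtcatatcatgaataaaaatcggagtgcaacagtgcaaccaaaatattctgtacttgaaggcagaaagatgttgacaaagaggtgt
Glp2r, chr11:67771104-67771403, minus strand: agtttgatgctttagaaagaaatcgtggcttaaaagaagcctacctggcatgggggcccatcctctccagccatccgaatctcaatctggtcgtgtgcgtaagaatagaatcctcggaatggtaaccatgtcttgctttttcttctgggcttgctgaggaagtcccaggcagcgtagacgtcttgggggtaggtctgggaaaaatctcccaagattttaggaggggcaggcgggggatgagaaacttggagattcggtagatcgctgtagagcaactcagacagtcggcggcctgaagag

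The match lay 119 bases before the RefSeq start in Oxtr and 178 bases before it in the first of 2 promoters of Adcyap1. These starts can differ from the gene bounds given below, which come from GENCODE. There the Oxtr gene, on the minus strand, reaches to 112489943, so its start lies upstream of the RefSeq start and close to the match. Of 9 promoters found for the members, which exclude Mc4r, 5 held TGTTT on either strand, as did 44.7% of 18790 promoters of genes in the table. The longer forkhead letters TGTTTAC, which contain TGTTT, were in 0 of the 9 and in 2.91% of all, and TATTTAT was in 0 of the 9 and in 4.67% of all. The other members with a TGTTT were Npr3, Npy1r and Adcyap1r1, and it was in neither Prokr2 nor Npy2r nor Glp2r. The GENCODE gene of Npy1r begins at 66697192, so its match, 186 bases before the RefSeq start, lies within that gene. A match is no sign of binding, and no count of factor binding was made here.

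Mc4r (chromosome 18, 66857704 to 66860506, minus strand, GRCm38) was the member with the largest log2 fold change between genotypes at P7. Its level at that age was 3.16, 3.07, 2.51 and 3.32 CPM in the controls (libraries 43, 45, 46 and 47), against 11.2, 11.1, 10.2 and 13.3 CPM in the knockouts (libraries 41, 42, 44 and 48). Every cKO library lay at more than 3 times every control library, and these values rest on 31 to 48 reads per control library and 126 to 171 per cKO library. The mean rose from 3.02 ± 0.353 to 11.4 ± 1.30 CPM (SD, n = 4), a ratio of 3.79 and a log2 fold change of 1.63 (SE 0.12). P0 controls (libraries 1, 2, 5 and 6) were at 17.4, 13.1, 13.4 and 7.80 CPM and P0 knockouts (libraries 3, 4, 7 and 8) at 17.4, 18.3, 21.1 and 17.04 CPM. The P0 groups overlapped, through control library 1, and the log2 fold change was 0.53 (SE 0.19, not called), or 0.25 without control libraries 2 and 6.

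The Mc4r level in control cortex was lower at P7 than at P0, at 0.233 of the P0 mean, whereas in cKO cortex it was 0.620 of the P0 mean. In descending order the means were 18.5 CPM in P0 cKO, 12.9 in P0 control, 11.4 in P7 cKO and 3.02 in P7 control, and of these only the last was set apart from its neighbour by more than the range of the libraries. The genotype difference at P7 exceeded that at P0 by 1.10 on the log2 scale (SE 0.23, limma interaction adjusted p = 0.0309). Mc4r was the 1 member called for this contrast, in which 0.751% of 13444 genes were called, 0.305% higher and 0.446% lower, and the other 8 had limma adjusted p from 0.305 to 0.948. The Mc4r contrast stayed between 0.95 and 1.38 under 23 alternatives but missed the threshold under 11 of them. Those were no filter and the fits without P0 cKO library 3, 4 or 8, without any 1 of the 4 P7 control libraries, or without P7 cKO library 41, 42 or 48, with limma adjusted p up to 0.0801.

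Of the ligands of this receptor, Pomc, the precursor of the melanocyte-stimulating hormones, had at most 9 reads in any library. Agrp, the antagonist, had 22.7 ± 6.88 CPM in P0 control and 25.4 ± 4.08 in P7 control cortex (SD, n = 4), and 21.3 ± 2.41 and 28.1 ± 3.89 in cKO cortex. The annotated Agrp gene spans 105566698 to 105637393 on chromosome 8 and overlaps Ctcf and Ripor1 on the other strand, and the strand setting of the counting is not given in the sources used here, so its reads are uncertain. Among the other melanocortin receptors, Mc3r had at most 3 reads in any library and Mc5r at most 16.

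Oxtr (chromosome 6, 112473683 to 112489943, minus strand) came next by log2 fold change at P7 among the genes that were higher in cKO cortex. P7 controls were at 8.99, 13.7, 12.1 and 9.68 CPM and P7 knockouts at 16.2, 18.6, 18.1 and 15.5 CPM. The lowest cKO library lay above the highest control library, and the mean rose from 11.1 ± 2.16 to 17.1 ± 1.47 CPM (SD, n = 4), a log2 fold change of 0.60 (SE 0.12), a call lost in 1 fit over all 16 libraries (limma adjusted p = 0.455). P0 levels were low, at 1.15, 2.88, 2.71 and 5.01 CPM in control and 6.13, 2.71, 2.27 and 5.64 CPM in cKO cortex. These P0 groups overlapped, and the log2 fold change of 0.41 (SE 0.31, not called) was 0.79 without control libraries 2 and 6. Oxtr is known as a receptor that comes on in mouse neocortex after birth, and its mean was 3.78 times as high at P7 as at P0 in control and 4.09 times as high in cKO cortex. The ligand gene Oxt had at most 1 read in any library. The vasopressin receptor gene Avpr1a, of the same family, had 4.70 ± 0.364 CPM in control and 3.29 ± 0.554 in cKO cortex at P7 (SD, n = 4), a log2 fold change of -0.41 that was not called (limma adjusted p = 0.131).

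Adcyap1, the PACAP precursor gene (chromosome 17, 93199017 to 93206537, plus strand), lay higher in cKO libraries at both ages. Its P0 values were 10.9, 8.58, 8.95 and 8.07 CPM in control and 12.3, 14.8, 14.4 and 13.7 CPM in cKO cortex. Its P7 values were 21.5, 19.5, 22.03 and 24.7 CPM in control and 31.6, 33.7, 32.6 and 29.4 CPM in cKO cortex. No library of one genotype reached the other at either age. The log2 fold change was 0.55 (SE 0.14, not called) at P0, or 0.44 without control libraries 2 and 6, and 0.52 (SE 0.08, called) at P7. The ratio of the means was 1.51 at P0 and 1.45 at P7.

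Its receptor gene Adcyap1r1 (chromosome 6, 55451978 to 55501451, plus strand) showed no such step. It had 215, 279, 224 and 257 CPM in P0 control and 257, 235, 254 and 244 CPM in P0 cKO cortex. P7 values were 116, 140, 132 and 112 CPM in control and 144, 142, 119 and 115 CPM in cKO cortex. The groups overlapped at both ages, and the log2 fold changes were 0.03 (SE 0.09) at P0 and 0.05 (SE 0.08) at P7. The P0 value was -0.0294 without control library 1, -0.00997 without control library 5 and 0.17 without control libraries 2 and 6. Per length, the receptor gene stood 15.3 times above its ligand gene in P0 control, 10.3 times in P0 cKO, 3.26 times in P7 control and 2.33 times in P7 cKO cortex, as ratios of mean CPM per kb of exon. Vipr1 and Vipr2, whose receptors bind VIP and PACAP alike, had 9.26 ± 5.95 and 4.12 ± 0.985 CPM in P0 control and 5.24 ± 1.0 and 2.59 ± 0.597 in P7 control cortex (SD, n = 4). Neither was called between genotypes at either age.

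The neuropeptide Y receptor gene Npy1r (chromosome 8, 66697192 to 66706792, plus strand) had 32.1, 33.0, 28.6 and 32.3 CPM in P7 control and 45.8, 44.6, 37.1 and 37.5 CPM in P7 cKO cortex, with no overlap. It rose from 31.5 ± 1.97 to 41.3 ± 4.595 CPM (SD, n = 4), a log2 fold change of 0.38 (SE 0.08). The call was lost under 4 of 15 alternatives, which were the fits without control library 46, cKO library 41 or cKO library 42 (limma adjusted p 0.0896, 0.0682 and 0.0662) and 1 fit over all 16 libraries (0.451). P0 controls were at 26.6, 14.3, 22.1 and 12.9 CPM and P0 knockouts at 32.8, 35.2, 29.3 and 26.7 CPM, with no overlap. The 2 low P0 controls were libraries 2 and 6, and without them the log2 fold change at P0 moved from 0.73 (SE 0.20) to 0.33, called in neither case.

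Npy2r (chromosome 3, 82538383 to 82548084, minus strand), known in many neurons as a presynaptic receptor, was the lowest of the 9 genes per length in P0 cortex. P7 controls were at 2.58, 3.48, 3.89 and 4.29 CPM and P7 knockouts (libraries 41, 42, 44 and 48) at 3.52, 4.03, 9.92 and 3.65 CPM. Library 44 alone lay above the control range, and the log2 fold change of 0.37 (SE 0.24, not called) was 0.07 without it. The P0 levels, on 13 to 41 reads, were 1.04, 0.775, 1.05 and 0.724 CPM in control and 2.27, 1.88, 1.38 and 0.940 CPM in cKO cortex. They overlapped, with a log2 fold change of 0.44 (SE 0.18, not called), or 0.33 without control libraries 2 and 6. In the same P7 cKO library 44 the summed markers of amygdala and claustrum were 453 CPM, against 337 to 373 in the other P7 cKO and 310 to 338 in the P7 control libraries. Of that sum Nr2f2 alone held 170 CPM in library 44, against 61.1 to 87.1 in the other P7 cKO libraries. The thalamic markers were at 252 CPM in library 44, against 193 to 239 and 183 to 184. Whether these marker values have a part in the Npy2r value was not tested.

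The ligand gene Npy, a marker of interneurons, rose at P7 from 29.4 ± 3.59 to 39.0 ± 5.02 CPM (SD, n = 4), a log2 fold change of 0.39 (SE 0.10, limma adjusted p = 0.0473). The call ended under 9 of 15 alternatives, among them medians of ratios, no filter, 1 fit over all 16 libraries and the fits without control library 43, 46 or 47 or cKO library 41, 42 or 48, with limma adjusted p from 0.0537 to 0.153. At P0 it had 112 ± 13.7 CPM in control and 94.9 ± 12.03 in cKO cortex (SD, n = 4), which was not called (limma adjusted p = 0.290). Summed interneuron markers, Npy included, ran from 529 to 613 CPM in control and 564 to 634 in cKO cortex at P7, with a ratio of means of 1.06. As a mean of log2(CPM + 1) over the same list they ran from 5.08 to 5.21 and from 5.22 to 5.42, without overlap (exact permutation p = 0.0286, adjusted 0.129 over 18 lists). Their part in the Npy value was not tested. Npy5r, another receptor gene of neuropeptide Y, had 2.31 ± 0.483 CPM in control and 3.04 ± 1.02 in cKO cortex at P7 (SD, n = 4) and was not called (limma adjusted p = 0.594).

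Prokr2 (chromosome 2, 132337733 to 132385447, minus strand), known for its role in olfactory bulb development and in the migration of the neurons that control reproduction, had 30.1, 25.96, 32.6 and 31.3 CPM in P7 control and 43.9, 34.01, 37.5 and 39.5 CPM in P7 cKO cortex. P0 controls were at 24.02, 18.5, 23.7 and 18.9 CPM and P0 knockouts at 33.8, 25.2, 27.8 and 29.7 CPM. The genotypes did not overlap at either age. It rose at P7 by 0.36 on the log2 scale (SE 0.09), and at P0 the log2 fold change was 0.44 (SE 0.13, not called), or 0.27 without control libraries 2 and 6. The P7 call was the weakest of the set, and was lost under 11 of 15 alternatives, among them edgeR (quasi-likelihood adjusted p = 0.0537) and the fit without any 1 P7 library other than cKO library 42, with limma adjusted p up to 0.137 for these. The ligand gene Prok2 had 1.45 ± 0.546 CPM in control and 1.47 ± 0.731 in cKO cortex at P7 (SD, n = 4), and the sister receptor gene Prokr1 had 1.28 ± 0.506 and 2.31 ± 0.713 CPM, a log2 fold change of 0.54 that was not called (limma adjusted p = 0.190).

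Npr3 (chromosome 15, 11839896 to 11907287, minus strand) differed between genotypes at P7 and overlapped at P0. Its P7 values were 33.0, 37.8, 40.8 and 38.7 CPM in control and 46.9, 44.3, 50.8 and 54.9 CPM in cKO cortex. The mean rose from 37.6 ± 3.31 to 49.2 ± 4.65 CPM (SD, n = 4), a log2 fold change of 0.38 (SE 0.08), and the call was lost without control library 43 (0.32, limma adjusted p = 0.0542) and in 1 fit over all 16 libraries (limma adjusted p = 0.0814). Library 43 also had the highest striatal marker sum of the P7 libraries, at 486 CPM. Its P0 values were 26.3, 29.3, 25.1 and 20.99 CPM in control and 26.7, 24.9, 27.1 and 27.3 CPM in cKO cortex, and the log2 fold change was 0.07 (SE 0.12). That P0 value was -0.0186 without control library 6 and 0.04 without control libraries 2 and 6. The interaction for Npr3 was not called (limma adjusted p = 0.305), so the P7 and P0 differences were not shown to differ. Npr2, which encodes the receptor enzyme for C-type natriuretic peptide, had 18.6 ± 2.48 CPM in control and 16.3 ± 1.34 in cKO cortex at P7, and its ligand gene Nppc 2.03 ± 0.530 and 1.23 ± 0.293 CPM (SD, n = 4). Neither was called (limma adjusted p = 0.493 and 0.225).

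Glp2r (chromosome 11, 67661502 to 67771153, minus strand) was the 1 member that was lower in cKO cortex. P7 controls were at 7.66, 5.67, 8.18 and 5.81 CPM, on 83 to 101 reads, and P7 knockouts at 3.65, 4.45, 1.87 and 2.43 CPM, on 23 to 56 reads. The groups did not overlap, and the mean fell from 6.83 ± 1.28 to 3.10 ± 1.17 CPM (SD, n = 4), a ratio of 0.454 and a log2 fold change of -0.96 (SE 0.19). P0 controls were at 4.22, 11.5, 5.91 and 7.13 CPM and P0 knockouts at 3.15, 3.27, 3.21 and 3.93 CPM, again apart. The P0 ratio was 0.472 and the log2 fold change -0.83 (SE 0.22, not called), and without control libraries 2 and 6 they were 0.669 and -0.46. The control mean was 7.18 ± 3.09 CPM at P0 (SD, n = 4), within 1 SD of that at P7. On the opposite strand lie Gas7, which shares 1.14% of the exon bases of Glp2r, and Rcvrn, which shares 0. The strand setting of the counting is unknown, so some reads of Glp2r could come from Gas7. Gas7 had 564 CPM in control and 598 in cKO cortex at P7, as means, and was not called (limma adjusted p = 0.636). The ligand gene Gcg had at most 14 reads in any library.

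**Figure D2:**
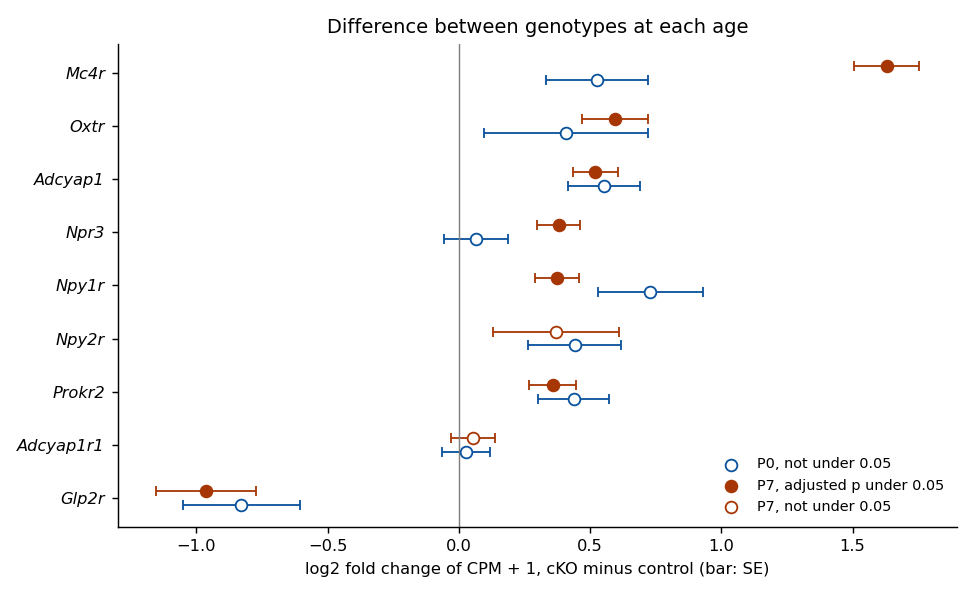
Log2 fold change of CPM + 1, cKO minus control (horizontal axis, bars are SE), for each gene at P0 (blue) and P7 (brown). Filled points were called over all genes and open points were not. Mc4r lies at 0.53 at P0 and 1.63 at P7, Glp2r at -0.83 and -0.96, and Adcyap1r1 near 0 at both ages.

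Counting libraries, 6 of the 9 genes had all 4 cKO values above all 4 controls at P7 and 1 had them below, where 5.11% and 3.77% of the genes tested did so, 8.88% in all. At P0 the counts were 3 and 1, where 5.37% and 4.50% did so, 9.86% in all. As with the calls, nothing is read from these counts for genes chosen with them in view. The genes whose P0 values were set apart were Prokr2, Npy1r and Adcyap1 above and Glp2r below, and all 4 were among the 7 set apart at P7 in the same direction.

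Per length, the order of the 9 genes in P7 control cortex was Adcyap1r1 at 18.9 ± 1.97 CPM per kb of exon, Npy1r at 9.12 ± 0.571, Adcyap1 at 5.81 ± 0.563, Npr3 at 4.001 ± 0.353, Prokr2 at 3.79 ± 0.362, Oxtr at 2.32 ± 0.450, Glp2r at 1.17 ± 0.220, Mc4r at 1.08 ± 0.126 and Npy2r at 1.05 ± 0.216 (SD, n = 4). Npr3 and Prokr2, and the last 3 genes, lay within their spread of each other. In P0 control cortex Mc4r stood at 4.61 ± 1.41 CPM per kb, above Npr3 at 2.71 ± 0.366 and Prokr2 at 2.68 ± 0.377. With deletion the Mc4r level at P7 was 4.08 ± 0.463 CPM per kb, between Prokr2 at 4.89 ± 0.524 and Oxtr at 3.57 ± 0.306. Per kb, Npy1r stood 8.66 times above Npy2r in P7 control and 7.65 times in P7 cKO cortex.

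**Figure D3:**
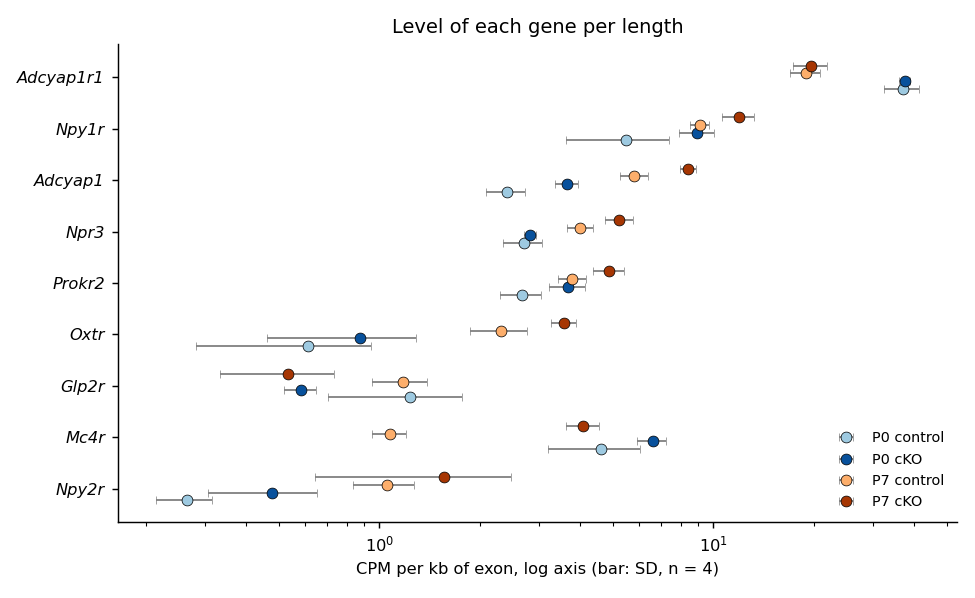
Level of each gene in CPM per kb of exon (horizontal axis, logarithmic) in the 4 groups. Points are means and bars are SD over 4 libraries. Adcyap1r1 is the highest at 18.9 to 37.5, and Mc4r in P7 control cortex, at 1.08, lies to the left of its other 3 groups.

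Between the control groups, 8 of the 9 genes were called for age or platform, 6 higher and 2 lower at P7, where 82.5% of 13444 genes were called, 35.1% higher and 47.3% lower. The median gene lay at -0.19 on the log2 scale, and scaling by medians of ratios moved that by 0.20. The log2 differences as deposited, not corrected for that shift, were 1.70 for Oxtr, 1.25 for Npy2r, 1.18 for Adcyap1, 0.76 for Npy1r, 0.55 for Npr3 and 0.48 for Prokr2, and -0.96 for Adcyap1r1 and -1.75 for Mc4r. Glp2r was not called (limma adjusted p = 0.986). These 8 directions held under every alternative run, all of which rest on the same deposited values. Biological age cannot be told apart from library preparation and sequencing instrument. Some genes were at 0 CPM in every library of 1 age. Gnaz and P2ry12 were at 0 at P0, with means of 129 and 40.2 CPM in P7 controls. Galr2 had a mean of 5.32 CPM in P0 controls and was at 0 at P7. Whether reads were counted alike at both ages was not tested.

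Other genes of peptide signalling were taken as 5 lists by their function. Of 96 list genes tested at P7, 3 rose and 2 fell, where 1.67% and 2.05% of all genes did so. Their median log2 fold change was 0.08, against 0.03 over all genes tested. Among 18 ligand genes Npy rose and 0 fell, among 9 receptor genes of the same families 0 were called, and among 25 other neuropeptide receptors Ntsr1 rose. The neurotensin receptor gene Ntsr1, a marker of layer 6 neurons that project to the thalamus, rose by 0.71 on the log2 scale (limma adjusted p = 0.000214), with means of 27.4 ± 1.66 CPM in control and 45.7 ± 5.38 in cKO cortex (SD, n = 4). Of the other 4 layer 6 markers, Hs3st4 fell by 0.56 (limma adjusted p = 0.00049), Foxp2, Syt6 and Tle4 were not called, and the layer 6 sum was 502 CPM in control and 468 in cKO cortex. Of the related receptors, those with the smallest p at P7 were Avpr1a, Prokr1 and Vipr1, the last with a log2 fold change of -0.27 (limma adjusted p = 0.452).

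Among 23 genes of peptide processing and degradation 2 fell at P7. The granin gene Chgb, whose protein sits in dense-core vesicles, fell by 0.41 on the log2 scale (limma adjusted p = 0.000473), with means of 265 ± 16.7 CPM in control and 199 ± 10.2 in cKO cortex (SD, n = 4). Dpp4, whose peptidase clips glucagon-like peptides, neuropeptide Y and PACAP, fell by 0.51 (limma adjusted p = 0.0102), with means of 16.05 ± 1.31 and 10.97 ± 1.11 CPM (SD, n = 4), a call that was lost in 1 fit over all 16 libraries (limma adjusted p = 0.175). Among 21 receptor partners and G proteins Rcn1 rose by 0.62 (limma adjusted p = 2.6e-05), with means of 48.1 ± 2.68 and 74.2 ± 2.34 CPM (SD, n = 4). Rcn1 encodes reticulocalbin, a calcium-binding protein of the endoplasmic reticulum, and is not itself known as a receptor partner.

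At P0, 2 of 82 tested genes of these lists rose and 0 fell, where 0.183% and 0.0715% of all genes did so. The cholecystokinin gene Cck rose by 0.64 on the log2 scale (limma adjusted p = 0.0324), with means of 36.01 ± 4.16 CPM in control and 56.3 ± 3.41 in cKO cortex (SD, n = 4). Ntsr1 rose by 0.52 (limma adjusted p = 0.0399), with means of 73.4 ± 5.96 and 105 ± 7.69 CPM (SD, n = 4). Without control libraries 2 and 6 together the values were 0.65 for Cck and 0.52 for Ntsr1, both called. Both calls were lost with no filter and without control library 6 or cKO library 3, 4, 7 or 8, with limma adjusted p up to 0.126 for Cck and 0.244 for Ntsr1. For the interaction, Crhr1 and Crhr2, the receptor genes of corticotropin-releasing hormone, were called in opposite directions, with contrasts of -1.02 (SE 0.20, limma adjusted p = 0.0183) and 1.11 (SE 0.24, limma adjusted p = 0.0360), beside Rcn1 at 0.92 (SE 0.13). Crhr1 had 11.02 ± 2.01 and 16.7 ± 1.23 CPM in P0 control and cKO cortex and 25.3 ± 3.17 and 18.5 ± 3.89 at P7 (SD, n = 4). Crhr2 had 1.70 ± 0.582 and 0.747 ± 0.106 CPM at P0 and 1.11 ± 0.383 and 2.01 ± 0.623 at P7 (SD, n = 4). The Crhr1 call was lost without P0 cKO library 3 or P7 control library 45 or 46 (limma adjusted p up to 0.0590), and the Crhr2 call under 13 of 22 alternatives (limma adjusted p up to 0.0929). Those were no filter, the fit without P0 control libraries 2 and 6, and the fits without P0 control library 2 or 6, any 1 P0 cKO library, P7 control library 45 or 47, or P7 cKO library 41, 44 or 48.

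**Figure D4:**
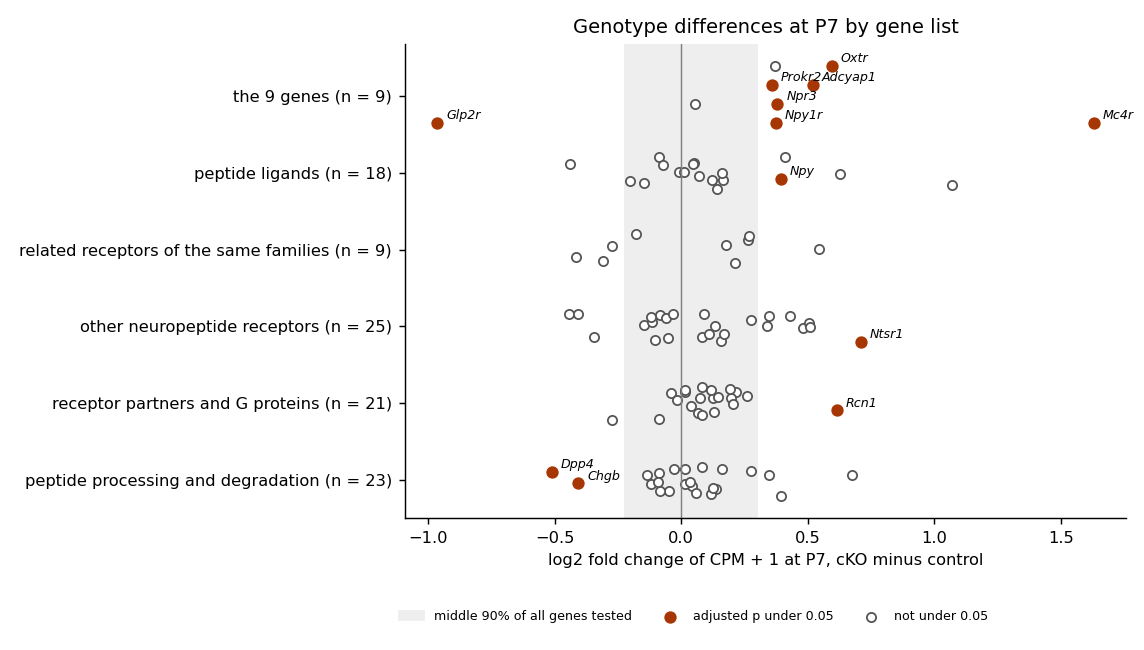
Log2 fold change of CPM + 1 at P7, cKO minus control (horizontal axis), for the 9 genes and for each list of other peptide signalling genes. Filled points were called over all genes, open points were not, and the grey band is the middle 90% of all genes tested, from -0.22 to 0.30. Mc4r at 1.63 and Glp2r at -0.96 lie far outside the band, and most points of the lists lie within it.

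The genes whose libraries varied most like each member were found by the correlation of log2(CPM + 1), centred within each age, over the 16 libraries, among 12192 genes. The libraries share their genotype groups, so the values describe likeness and carry no test. For Mc4r they were Smad1, a mediator of BMP signals, at 0.904, the matrix proteoglycan gene Vcan at 0.902 and the prostaglandin-degrading enzyme gene Hpgd at 0.892. For Oxtr they were Sirpa at 0.899, the matricellular gene Nov at 0.887 and Cpne2 at 0.882. For Adcyap1 they were the growth factor gene Fgf10 at 0.904, the transcription factor gene Bhlhe22 at 0.880 and the chromatin remodelling gene Smarca2 at 0.872. For Glp2r they were the planar polarity gene Prickle1 at 0.956, Ube2e2 at 0.915 and Osbpl3 at 0.887, all of which fell at P7, with log2 fold changes of -0.46, -0.31 and -0.86.

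For Npy1r the closest were the fatty aldehyde dehydrogenase gene Aldh3a2 at 0.955, Fyco1 at 0.935 and Cyb5d2 at 0.928, and for Prokr2 they were Dnah5 at 0.930, the hyaluronan synthase gene Has3 at 0.927 and Fsip1 at 0.906. For Npr3 they were Fkbp5, a co-chaperone of steroid receptors, at 0.877, Smad1 at 0.826 and Trib2 at 0.821. For Adcyap1r1 they were Arnt2 at 0.914, the lysosomal gene Psap at 0.895 and Efr3b at 0.875, none of them called at either age. For Npy2r they were Zim1 at 0.897, the nuclear receptor gene Nr2f2 at 0.793 and Crb1 at 0.789, and all 3 had their highest P7 value in cKO library 44, where Nr2f2 was at 170 CPM against 61.1 to 87.1 in the other 3 cKO libraries. Nr2f2 is also among the amygdala and claustrum markers, so the same values enter that sum and this likeness.

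Marker sums of other cells and regions were compared between genotypes with an exact two-sided permutation test over 70 assignments, whose smallest p is 0.0286, adjusted over 18 lists. None passed at either age. With so large a smallest p, a list could pass only if most of the lists were set apart together, so this is no sign of unchanged cell content. At P7 the sum of 5 layer 4 markers ran from 550 to 609 CPM in control and 284 to 386 in cKO libraries (exact permutation p = 0.0286, adjusted 0.257). Of these, Rorb and Kcnh5 fell, Unc5d had means of 273 and 207 CPM, and Rspo1 at 0.442 and 1.13 CPM and Scnn1a at 1.80 and 2.46 CPM were higher in cKO cortex, the last 3 not called. The P7 thalamic markers ran from 183 to 184 CPM in control and 193 to 252 in cKO libraries (exact permutation p = 0.0286, adjusted 0.257). Slc17a6 held most of that sum, with means of 138 and 172 CPM. As a mean of log2(CPM + 1) the thalamic list overlapped, at 3.37 to 3.44 and 3.40 to 3.93 (exact permutation p = 0.343, adjusted 0.771). At P0 the amygdala and claustrum markers ran from 257 to 286 CPM in control and 324 to 363 in cKO libraries (exact permutation p = 0.0286, adjusted 0.171). As a mean of log2(CPM + 1) that list overlapped, at 4.63 to 4.91 and 4.69 to 4.89. Ntng2, Nr2f2 and Gnb4 had higher means in cKO cortex, and Cyp26b1 and Lhx9 lower ones. The P0 microglial sum was also higher in cKO libraries, at 25.9 to 32.6 CPM against 22.6 to 25.8, with P2ry12 at 0 throughout. The P0 red blood cell sum was lower, at 15.6 to 19.0 CPM against 20.2 to 28.7. Striatal markers at P7 were at 486 CPM in control library 43, 206 to 225 in the other 3 controls and 242 to 408 in cKO libraries. The part of these cells in the values of the 9 genes was not tested.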

How the data were processed

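PolyA RNA-seq libraries of mouse cortex, 16 in 4 groups of 4, were analysed from 1 table of CPM values that the authors deposited, with 20841 genes and no gene of chromosome X or Y. Tools named in the submitters' processing notes are HTSeq, STAR and edgeR, with the builds GRCm38 and mm10, and their versions and settings are not stated there. Every value was a whole multiple of the CPM of 1 read, in 100% of values to within 0.01 read, so read totals were recovered. Each genotype effect was fitted over its 8 libraries with limma 3.58.1 (R 4.3.3) on log2(CPM + 1), with a trended spread, for genes that reached 1 CPM in 4 or more libraries, and the interaction and age effects over all 16. On the recovered reads edgeR 4.0.16 and DESeq2 1.42.0 were run as alternatives. The limma script was tested on simulated data with the same fixed spread in every gene and group. That test does not cover groups of unequal spread, such as those here. Positions and exon lengths come from GENCODE M21 (GRCm38). The members, lists and alternatives were chosen with earlier results of these data known. Named beyond the members were list genes called in a genotype or interaction fit, otherwise the 3 with the smallest p at P7, and the 3 closest patterns per member. Replicate pairs differed by a chi-square per gene of 2.62 to 37.5, above counting error. P0 control pairs were the most unlike, at 13.5 to 37.5, against 7.25 to 9.57 in P0 cKO and 2.62 to 8.63 in the P7 groups. The fits use 1 spread per gene for all groups in them. No label says that libraries of a group came from separate animals, so p-values measure the spread between libraries. Floors cover counting error only, since reads carried no molecular identifiers.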

Additional observations from a re-analysis of the deposited data

Results flagged for a closer look

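Chance alone sets about 1 in 20 groups of 4 apart, and 36 groups of the 9 genes were examined. Npy2r in P7 cKO library 44, at 9.92 CPM, stood apart from the other 3 libraries of its group, with a gap of 0.920 of the group's range. Glp2r in P0 cKO library 8, at 3.93 CPM, stood apart from the other 3, with a gap of 0.850 of the range while the 4 values ran from 3.15 to 3.93 CPM. The genotype difference of Mc4r was larger at P7 than at P0 by 1.10 on the log2 scale (limma interaction adjusted p = 0.0309). All 4 P7 cKO libraries lay above all 4 P7 controls, and the P0 groups overlapped. The interaction call was lost under 11 of 23 alternatives (limma adjusted p up to 0.0801).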

How the results depend on the processing

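No paired analysis was possible because the groups share no library numbers. The 32 genes called at P0 became 7 with no filter, 429 with DESeq2, 794 in 1 fit over all 16 libraries, 118 without control libraries 2 and 6, and 4 to 136 when 1 library was left out. The 0 members called at P0 became 4 with DESeq2 (Prokr2, Glp2r, Npy1r and Adcyap1), 4 in 1 fit over all 16 libraries, and 0 to 2 when 1 library was left out, with Glp2r and Npy1r called without control library 1. At P7 the 477 calls became 175 in 1 fit over all 16 libraries and 281 to 496 when 1 library was left out, the lowest without control library 46. They were 463 with edgeR and 603 with DESeq2, and 214 higher and 263 lower calls became 155 higher and 305 lower under medians of ratios, 162 higher and 301 lower under edgeR, and 213 higher and 390 lower under DESeq2. The 7 members called at P7 became 3 in 1 fit over all 16 libraries and 5 to 6 when 1 library was left out. Npy1r lost its call without control library 46 or cKO library 41 or 42 (limma adjusted p up to 0.0896), and in 1 fit over all 16 libraries it was lost by Oxtr, Npr3, Prokr2 and Npy1r (limma adjusted p 0.455, 0.0814, 0.196 and 0.451). Mc4r and Adcyap1 kept their P7 calls under all 15 alternatives and Glp2r under the 14 that tested it. The 101 interaction calls became 54 with no filter, 291 with DESeq2, 175 without P0 control libraries 2 and 6, and 45 to 361 when 1 library was left out, and the 1 member called became 0 with no filter and 0 to 1 when 1 library was left out. The split of 41 higher and 60 lower became 31 and 72 with edgeR. Near 0, the P0 value of Adcyap1r1 was -0.000193 with DESeq2 and -0.0294 to 0.0949 when 1 library was left out, and that of Npr3 -0.0186 to 0.135 when 1 library was left out. As a mean of log2(CPM + 1) instead of a sum, 6 marker differences that did not pass turned, to 0.00839 for excitatory neurons, -0.115 for layer 4 and -0.111 for hippocampus at P0, and to 0.0339 for layer 6, -0.0512 for subplate and 0.0339 for hippocampus at P7. The causes were not tested. Depth limits Npy2r at P0 (13 to 41 reads), Oxtr at P0 (21 to 111) and, at P7, Glp2r in cKO (23 to 56) and Mc4r in control libraries (31 to 48).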
